A study of Mus musculus with 6 samples.

Results

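Glycosyltransferases and carbohydrate sulfotransferases that build mucin and other glycan chains were followed in the jejunal crypt epithelium of Sox9-deficient mice. Members were found by symbol, as the genes whose single annotated symbol begins with Galnt, B3gnt, B4galt, B3galt, St3gal, St6gal, St8sia, Fut, Gcnt, C1galt or Chst and goes on to a digit. This gave 88 genes (one of them, Fut4-ps1, a pseudogene) on 177 probe sets, and each gene was read from its probe set with the highest mean over the 6 arrays. The KO group was 3 Sox9-deficient mice (KO 1 to KO 3), and the WT group 3 wild-type littermates (WT 1 to WT 3). All were 3 months old, of strain C57BL/6, and gave 1 single-colour array each of total RNA from crypts of the jejunum. The values are log2 GCRMA intensities. The sources used here do not say how Sox9 was removed, in which cells, or which mutant and control were born together. Precision is limited by the number of arrays, since these carry no count of reads.

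Mucin-type glycosylation starts in the Golgi, where GALNT enzymes attach N-acetylgalactosamine to serine or threonine of a protein. C1GALT1, which needs the chaperone encoded by C1galt1c1, adds galactose to make core 1, and GCNT enzymes branch it. Galactosyl- and N-acetylglucosaminyltransferases then lengthen the chain, and sialic acid, fucose or sulfate cap it. In the intestine such sugars make up most of the mass of the mucin molecules, which goblet cells secrete. The same families also modify N-linked glycans, glycolipids and proteoglycans.

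Of the 88 members, 37 had a mean of at least 4 on the log2 scale and entered the test, and 51 lay under that filter. Just inside it was St3gal1, with a mean of 4.33, and just outside it Chst15, with 3.81. Tests were made with limma over all 18108 probe sets that passed the filter. Of these, 2 passed an adjusted p of 0.05, which is 0.011% of those tested, and 0 of the 37 members were among them. The smallest adjusted p of a member was 0.999. Before adjustment 3 members had a p under 0.05, all lower in KO (Galnt5, Galnt3 and C1galt1c1). They were 8.11% of the tested members, where 3.62% of all probe sets reached that p and 1.81% did so lower in KO. An absolute difference of at least 1 was reached by 3 members (Galnt5, St6galnac1 and B3gnt3), and by 2.97% of all probe sets.

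The arrays read epithelium, with leukocyte RNA as well. All 7 epithelial and 3 crypt base markers passed the filter, as did 5 of 6 leukocyte genes. In contrast, 6 of 7 stromal and all 3 endothelial markers stayed under 4 on every array. The other stromal marker, Vim, read 7.22 to 8.31. Of 3 Sox9 probe sets, 1 read lower on every KO array (2.42 to 2.75) than in WT (5.84 to 7.61), a difference of -3.93 (limma adjusted p = 0.188). In the order of mouse number, the one with the highest mean read 5.33, 6.34 and 5.76 in KO and 6.23, 5.38 and 2.68 in WT. Its difference was 1.05, and WT 3 was the only WT array below the KO arrays. The remaining one, under the filter, read 3.21 in KO and 3.31 in WT on average. Which of them lie in the deleted part of Sox9 is not known here. WT 3 had the largest difference between the 3' and 5' Gapdh probe sets, at 1.75 log2 units against 0.37 to 0.91 on the others. The summed intensity of 6 leukocyte genes was lowest on WT 1. On the log2 scale it was 7.56 there, 11.20 on WT 2, 11.52 on WT 3 and 11.04 to 14.12 in KO. The antibody subunit gene Jchain was the brightest of the 6 on every array (6.33 on WT 1, 14.00 on KO 1). It thus weighed most in the sum. In RNA pooled from all cells of the crypts, fewer cells of a type and less RNA per cell cannot be told apart.

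The KO values lay wholly below the WT values in 6 of the 37 tested members, and wholly above in 0. These were Galnt5, Galnt3, Galnt2, Galnt11, C1galt1c1 and B4galt1, or 16.2% of the tested members, where 4.03% of all probe sets tested lay this way round and 5.09% the other. The median difference, KO minus WT, over the 37 was -0.15, against 0.03 over all probe sets tested, and 27 of 37 members were negative (73.0%, against 46.1% of all). KO 1 carried much of that shift. With KO 1 left out, the median moved to -0.0050, against 0.048 over all probe sets tested. Then 20 of 37 members were negative (54.1%, against 43.3% of all). In that setting 9 members lay wholly below WT (10.01% of all probe sets) and 2 above (14.1%). With arrays weighted by their estimated reliability the median was -0.017.

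**Figure D1:**
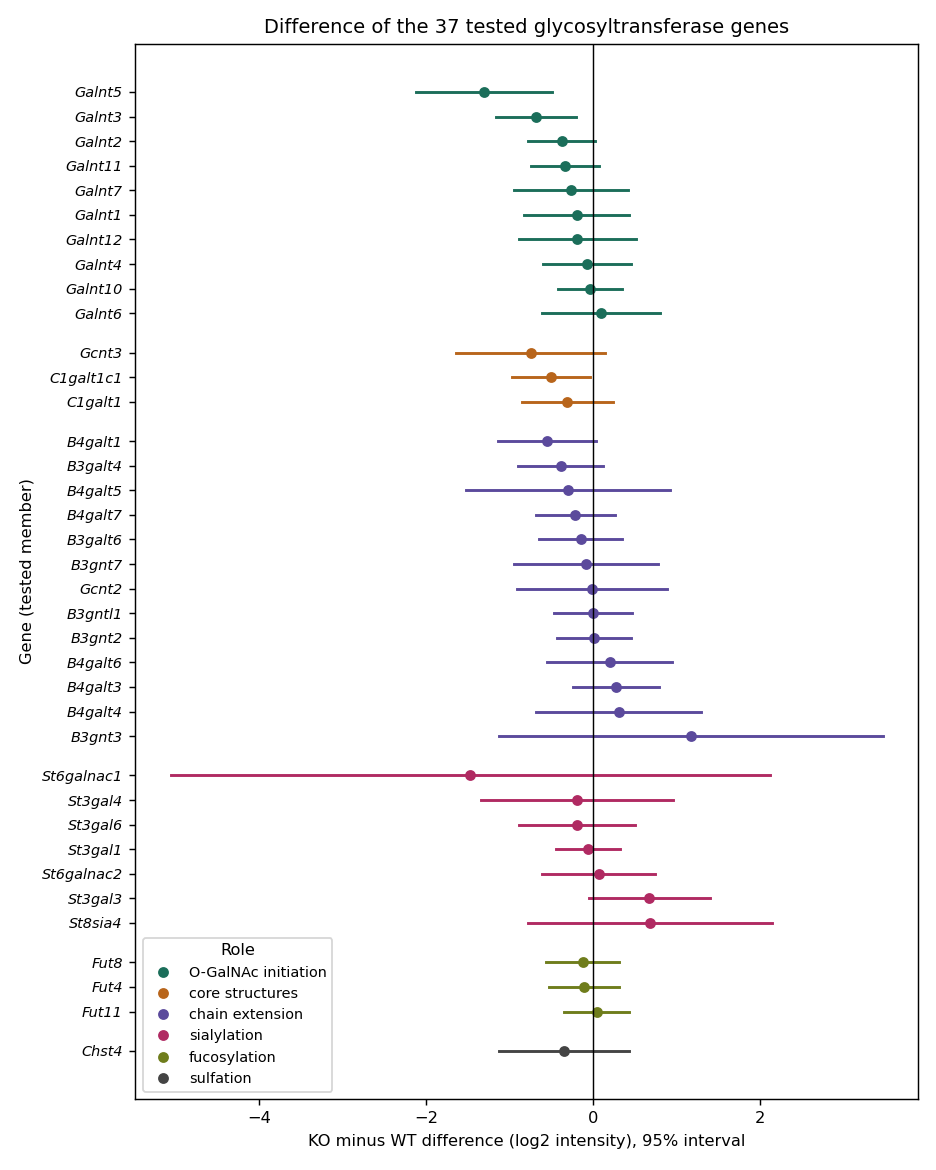
KO minus WT difference (x axis, log2 intensity) of each of the 37 tested genes, with the 95% interval of the limma fit as a line and genes grouped by role. Intervals of Galnt5, Galnt3 and C1galt1c1 lie below 0, and those of the other 34 genes hold 0; St6galnac1 and B3gnt3 have the widest.

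The upstream sequences of 3 of the 6 genes whose groups did not overlap are shown. These 3 had the smallest unadjusted limma p of the 6 among those with an entry, and none passed after adjustment. The table of RefSeq promoters (assembly GRCm38.p6) held 66 of the 88 members, and C1galt1c1 was not among them. Each run is the 250 bases before the annotated start, 5′ to 3′ on the gene's strand. Capitals mark the GC box GGGCGG on either strand. Galnt5 lies at chr2:57997905-57998154 on the plus strand, Galnt3 at chr2:66124794-66125043 on the minus strand and B4galt1 at chr4:40853985-40854234 on the minus strand.
Galnt5: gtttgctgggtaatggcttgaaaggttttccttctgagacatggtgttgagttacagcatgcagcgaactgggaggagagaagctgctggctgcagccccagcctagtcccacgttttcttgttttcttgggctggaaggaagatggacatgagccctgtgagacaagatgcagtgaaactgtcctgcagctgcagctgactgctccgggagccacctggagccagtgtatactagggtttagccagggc
Galnt3: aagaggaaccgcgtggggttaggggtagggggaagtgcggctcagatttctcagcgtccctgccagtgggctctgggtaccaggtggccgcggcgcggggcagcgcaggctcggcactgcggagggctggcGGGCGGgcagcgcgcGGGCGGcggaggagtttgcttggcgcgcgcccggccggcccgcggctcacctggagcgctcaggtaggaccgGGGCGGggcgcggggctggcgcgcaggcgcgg
B4galt1: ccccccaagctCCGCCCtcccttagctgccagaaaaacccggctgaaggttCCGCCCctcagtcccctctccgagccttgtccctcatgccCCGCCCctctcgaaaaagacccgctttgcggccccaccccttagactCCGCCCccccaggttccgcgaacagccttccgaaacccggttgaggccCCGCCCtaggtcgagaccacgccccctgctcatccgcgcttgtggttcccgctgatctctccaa

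The 3 windows differed in composition. Galnt5 held 54.0% G and C, near the median of 52.4% over all 32851 windows of the table, and no GC box. Galnt3 held 76.8% G and C and 3 GC boxes, at 119, 104 and 32 bases before the start, and B4galt1 held 66.4% and 5 GC boxes on the opposite strand. The SOX-type strings ACAATG and ACAAAG, the TCF-type string TCAAAG and the TATA string TATAAA, searched on both strands, had no match in any of the 3. These 5 strings share no full match with each other. Over the 35 windows of the 27 tested members in the table, ACAATG was in 0 (10.7% of all windows), ACAAAG in 3 (16.5%), TCAAAG in 7 (13.8%), TATAAA in 0 (12.4%) and GGGCGG in 20 (32.7%). These are counts of letters in one window per start, not of bound sites. The members counted had passed the intensity filter, while the windows of the whole table were not so limited, so the sets are unlike.

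Initiating GalNAc transferases lay lower in KO in 9 of 10 tested genes, with a median difference of -0.23, and 0 of 10 passed after adjustment. Galnt5 showed the largest difference of the 10. In the order of mouse number, it read 4.92, 3.75 and 4.74 in KO and 5.96, 5.50 and 5.85 in WT. The highest KO array lay below the lowest WT array, and all 6 were in the low part of the range, where GCRMA compresses differences. The difference was -1.30 ± 0.34 (SE, n = 3 each), or 2.47-fold, with a 95% interval of -2.12 to -0.49 (limma unadjusted p = 0.00721, adjusted p = 0.999). It was -0.94 without KO 2 and -1.53 without KO 1.

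Galnt3, whose enzyme is known for glycosylating the hormone FGF23, read 8.37, 8.71 and 8.77 in KO and 9.47, 9.35 and 9.08 in WT. The difference was -0.68 ± 0.20 (SE, n = 3 each; limma unadjusted p = 0.0131, adjusted p = 0.999). Galnt5 and Galnt3 kept an unadjusted limma p under 0.05 with any 1 of the 6 arrays left out. Galnt2, a broadly acting initiating enzyme, read 9.12, 9.18 and 9.30 in KO and 9.43, 9.71 and 9.59 in WT. Its difference was -0.38, with an interval of -0.78 to 0.03. On 2 further Galnt2 probe sets the groups overlapped. The first differed by -0.78, with KO 3 (7.91) above WT 3 (7.81). The second differed by -0.03, and on it WT 3 read 3.77 and the other arrays at least 5.30. Galnt11 read 4.83, 4.99 and 4.73 in KO and 5.15, 5.32 and 5.09 in WT, a difference of -0.33 (interval -0.74 to 0.07).

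The other initiating genes had overlapping groups. Galnt7, which prefers peptides that already carry a sugar, read 10.46 on KO 1 and 11.25 to 11.41 on the other 5 arrays. Its difference of -0.26 was 0.04 without KO 1. Galnt4 differed by -0.07 (interval -0.59 to 0.46) and Galnt12 by -0.19 (-0.89 to 0.51), or -0.0048 without KO 2. Galnt6 had 3 tested probe sets that disagreed. The one with the highest mean differed by 0.10 and another by -0.37, and the third by 1.41, with 2.58 on WT 3 against 5.21 to 7.71 elsewhere. The remaining 8 GALNT-family members, among them Galnt13 and Galnt14, lay under the filter.

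**Figure D2:**
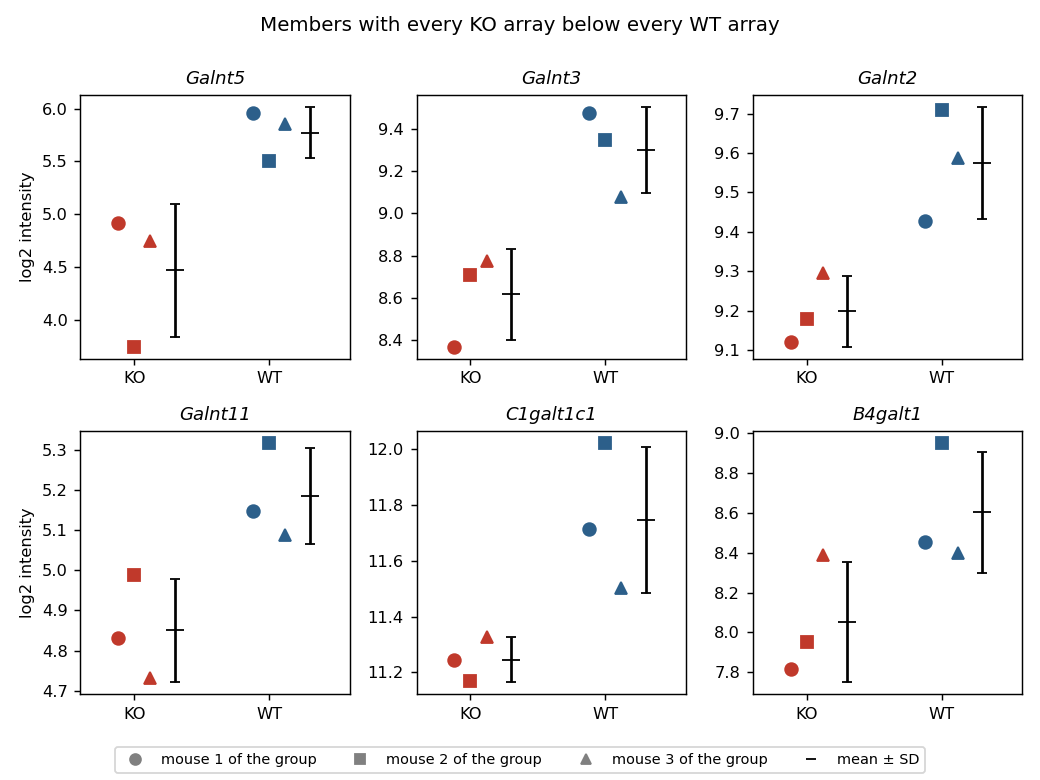
Log2 intensity (y axis) on every array for the 6 members whose KO values all lie below their WT values; coloured points are mice, black bars the mean and SD of 3. The gap between groups is widest in Galnt5 (KO at most 4.92, WT at least 5.50) and narrowest in B4galt1 (8.39 and 8.40).

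Genes of the core structures all lay on the lower side in KO, with a median of -0.50 over 3 tested. C1galt1c1, the chaperone gene, read 11.24, 11.17 and 11.33 in KO and 11.71, 12.02 and 11.50 in WT. The difference was -0.50 ± 0.20 (SE, n = 3 each; limma unadjusted p = 0.0396, adjusted p = 0.999), with an interval of -0.97 to -0.03. It was -0.36 without WT 2 and -0.62 without WT 3. With 1 array left out, its unadjusted limma p stayed under 0.05 only without WT 3, unlike Galnt5 and Galnt3. C1galt1, the core 1 enzyme itself, differed by -0.31 (interval -0.85 to 0.24), or -0.12 without KO 2. On a second C1galt1 probe set the difference was -0.76 and all KO arrays (5.94 to 6.57) lay below all WT arrays (at least 6.67). Gcnt3, which makes branched mucin cores, read 8.71, 8.91 and 9.47 in KO and 9.04, 10.21 and 10.09 in WT. WT 1 lay among the mutants, and the difference of -0.75 had an interval of -1.64 to 0.14. Gcnt1 and the core 3 enzyme gene B3gnt6 were under the filter, with B3gnt6 at most 2.15 on any array.

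Chain-extending enzymes, a group that also held branching and linker enzymes, were split. Of the 13 tested genes 8 were negative, with a median of -0.0092 (-0.09 without WT 3, 0.05 without KO 1). B4galt1, a main galactosyltransferase of N- and O-glycans, read 7.81, 7.95 and 8.39 in KO and 8.46, 8.95 and 8.40 in WT. KO 3 and WT 3 were all but level, and the difference was -0.55 (interval -1.14 to 0.04). B3galt4, which makes a ganglioside, differed by -0.39 (-0.89 to 0.12). B4galt6, which makes lactosylceramide, differed by 0.20. All 4 of its tested probe sets were positive, up to 0.68, and on the one with 0.68 the KO arrays (7.21 to 7.85) lay above the WT arrays (6.32 to 7.10). B3gnt7, a chain-extending enzyme gene, differed by -0.08 (-0.94 to 0.78). It spread from 6.60 to 8.03 in KO and from 7.32 to 7.41 in WT.

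Sialyltransferase genes were 4 negative and 3 positive of 7 tested, with a median of -0.06 (-0.12 without KO 2, 0.08 without KO 1). St3gal4 differed by -0.19, an interval of -1.35 to 0.96, since KO 1 (11.08) and KO 3 (12.80) lay on either side of all WT arrays (11.65 to 12.70). St3gal3 was the sialyltransferase gene with the smallest p. It read 6.49, 6.12 and 5.41 in KO and 5.54, 5.32 and 5.14 in WT, with KO 3 inside the WT range. The difference was 0.68 (interval -0.05 to 1.40, limma unadjusted p = 0.0635, adjusted p = 0.999).

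St6galnac1, which makes the sialyl-Tn structure of goblet cell mucin, parted the mice across both groups. It read 5.56, 3.79 and 7.48 in KO and 8.65, 8.68 and 3.90 in WT. The lowest arrays were thus 1 mutant and 1 control. The difference of -1.47 had an interval of -5.05 to 2.12, and it was -3.06 without WT 3 and -0.56 without KO 2. Muc2, the secreted mucin of goblet cells, did not follow it, with 13.95 on KO 2 and 14.43 on WT 3 (13.50 to 14.34 on the others). WT 3 was the array with the large Gapdh difference, and KO 2, at 0.58, was not. Their part in the result was not tested.

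B3gnt3, which extends core 1 chains, was low on WT 3 as well. It read 7.87, 9.25 and 8.89 in KO and 8.15, 9.08 and 5.27 in WT. Its difference of 1.17 was 0.06 without WT 3. WT 3 lay at least 1 log2 unit below the other 5 arrays on 3 of the 57 tested probe sets of members, those of B3gnt3, Galnt2 and Galnt6 (5.26%, against 1.05% of all probe sets tested). KO 1 did so on 2, of Galnt7 and B4galt5 (3.51%, against 2.54%), and WT 1 on 1, of St8sia4 (1.75%, against 0.85%). WT 2 lay at least 1 log2 unit above the other 5 arrays on 1, of C1galt1 (1.75%, against 0.326%).

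Both St8sia4 and St6gal1, sialyltransferase genes with known roles in leukocytes, moved on arrays where some leukocyte markers did and others did not. St8sia4, which makes polysialic acid, read 4.85, 5.34 and 4.82 in KO and 2.85, 4.93 and 5.19 in WT. WT 1 alone was low, and the difference of 0.68 was -0.05 without it. Ptprc, which encodes the leukocyte antigen CD45, was lowest there too, at 5.73 against 8.50 to 9.53. Cd3e (5.19), Csf1r (2.87) and Jchain, an antibody subunit gene (6.33), were also lowest on WT 1. The B cell gene Cd79a was lowest on KO 3 (2.33). St6gal1, under the filter and not tested, read 5.60 on KO 1, 3.85 on KO 2 and 2.58 to 2.65 on the other arrays. Cd79a read 6.14 on KO 1, 7.21 on KO 2 and 2.33 to 3.86 on the others. Jchain was highest on KO 1 (14.00), but read 11.49 on KO 2 against 11.07 on WT 3. Cd3e read 6.76 on KO 1 and 6.83 on KO 2, against 6.87 on WT 2. Csf1r read 9.76 on KO 1, but 7.12 on KO 2, below KO 3 (8.36). Of the 6 leukocyte genes, Itgam was under 4 on every array. The part of leukocyte RNA in these values was not tested.

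**Figure D3:**
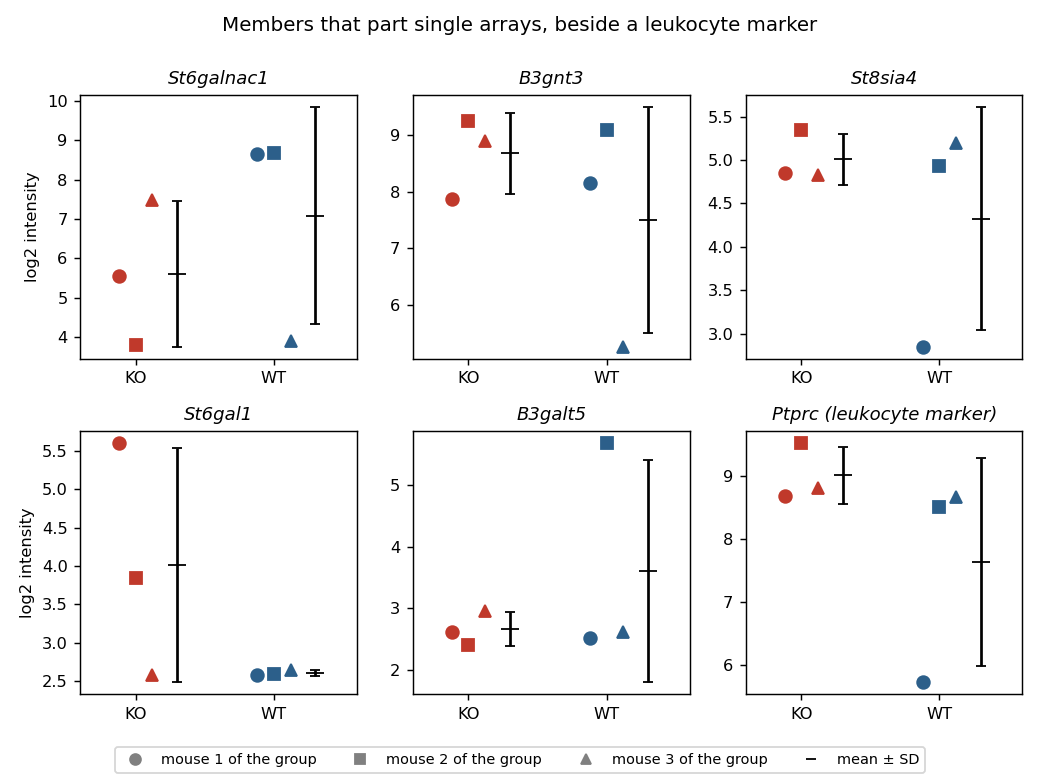
Log2 intensity (y axis) on every array for 5 members in which single mice stand apart, and for the leukocyte gene Ptprc; black bars are the mean and SD of 3. St6galnac1 is low on KO 2 and WT 3, B3gnt3 on WT 3 and St8sia4 on WT 1, while St6gal1 is high on KO 1 (5.60) and B3galt5 on WT 2 (5.68).

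Few fucosyl- and sulfotransferase genes were above the filter. Fut8, which adds fucose to the core of N-glycans, read 10.84 to 10.94 in KO and 10.82 to 11.27 in WT, a difference of -0.12 (interval -0.56 to 0.32) that was -0.0013 without WT 3. The median of the 3 tested fucosyltransferase genes was -0.11 (-0.0013 without WT 3). Fut2, which makes the H antigen in secretions, read 3.25 to 3.32 on all arrays and was not tested. Chst4, the only one of the 14 sulfotransferase members that was tested, adds sulfate to N-acetylglucosamine. It read 7.16, 6.87 and 6.68 in KO and 6.87, 7.93 and 6.96 in WT, and its difference of -0.35 was -0.0056 without WT 2.

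Of the 51 members under the filter, 48 stayed under 4 on every array. The other 3 were Chst15, with 4.42 on KO 1, St6gal1, and B3galt5, which makes type 1 chains. B3galt5 read 5.68 on WT 2 and 2.41 to 2.96 on the other 5 arrays, and a second B3galt5 probe set read 3.60 on WT 2 and 2.13 to 2.14 elsewhere. Differences near this floor have no reliable size.

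WT 2 was the highest array on 13 of the 37 tested members, a count for which the share over all probe sets was not taken. KO 1 was the lowest on 13 (35.1%, against 27.4% of all probe sets tested). Taken over the members, the median deviation of an array from the mean of each gene was -0.12, -0.03 and -0.05 for the KO mice in order, and 0.02, 0.27 and 0.04 for the WT mice. The groups did not overlap on this measure, although KO 2 and WT 1 were close. Among the initiating genes KO 1 stood lowest (-0.35), and KO 2 (-0.0056) and KO 3 (-0.04) lay closer to WT 1 (0.07).

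**Figure D4:**
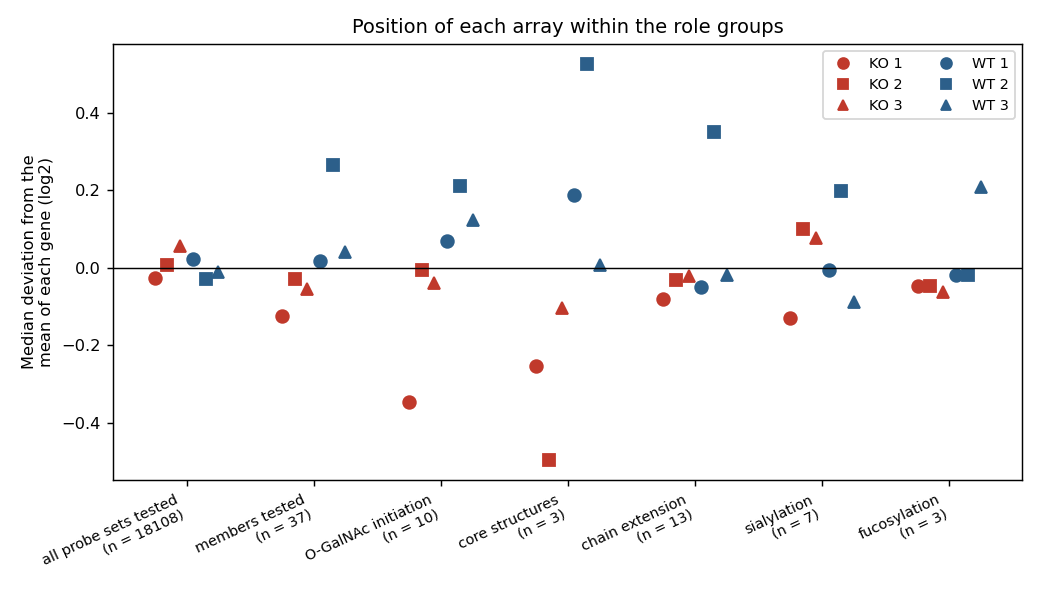
Median deviation of each array from the mean of each gene (y axis, log2), for all probe sets tested, all tested members and 5 role groups; red points are KO, blue WT and shapes the mouse number. The medians over all 18108 probe sets lie between -0.03 and 0.06, whereas the median over the members stands at 0.27 for WT 2 and -0.12 for KO 1.

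Of 15 members with several tested probe sets, 11 had differences of one sign on all of them and 4 did not (Fut11, Galnt4, Galnt6 and Gcnt2). Galnt7, with 3 probe sets between -0.26 and -0.19, was of one sign, as was Gcnt3, whose second probe set differed by -0.40.

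Genes that supply the sugars were measured beside the members. Of 27 tested genes of sugar and sulfate donors and their Golgi transporters, 0 passed after adjustment, 14 were negative and the median was -0.08 (-0.20 without KO 3, 0.019 without KO 2). The groups did not overlap, with KO below WT, in 4 of them (Cmas, Fcsk, Slc35a3 and Slc35a2), and in 0 with KO above, where the shares of all probe sets were 4.03% and 5.09%. Cmas, which activates sialic acid, read 11.04, 11.36 and 11.30 in KO and 11.66, 11.89 and 11.62 in WT. Its difference was -0.49 ± 0.18 (SE, n = 3 each; limma unadjusted p = 0.0334, adjusted p = 0.999). Fcsk, a fucose kinase gene, differed by -0.41, Slc35a3, a carrier of UDP-N-acetylglucosamine, by -0.48 (-0.24 without KO 1) and Gfpt1, which opens the hexosamine pathway, by -0.58 (-0.23 without KO 1).

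Glycosyltransferases outside the symbol rule were centred near 0, with a median of -0.04 over 22 tested genes (-0.12 without KO 3, 0.13 without KO 1) and 0 past adjustment. The smallest p belonged to Ext2 (difference 0.31), Lfng (0.55, or 0.14 without WT 2), Rfng (-0.23) and B4galnt1 (0.25). EXT2 builds heparan sulfate, and the fringe enzymes LFNG and RFNG modify Notch receptors.

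Mucins and mucus proteins likewise had 0 of 10 tested genes past adjustment and a median of -0.07 (-0.13 without KO 3, 0.075 without KO 1). Muc2 differed by 0.04, with an interval of -0.70 to 0.78. Zg16 (-0.18, or -0.12 without KO 2), Muc4 (-0.27, or -0.11 without WT 2) and Fcgbp (-0.32, or -0.0028 without KO 1) had overlapping groups. Muc3, a membrane mucin gene of enterocytes, read 12.75, 12.89 and 12.56 in KO and 9.84, 9.74 and 13.31 in WT. Its difference of 1.77 (limma adjusted p = 0.999) was 2.95 without WT 3 and 1.16 without WT 2. WT 3 was the only WT array that read above the KO arrays, so leaving it out had to widen the gap. The limma adjusted p was then 0.0238, in a setting where 16 of 18108 probe sets passed 0.05, against 2 with all arrays. The summed intensity of 9 goblet cell markers was 17.72 to 17.91 in KO and 17.82 to 17.93 in WT on the log2 scale, so the groups overlapped. Of the 9 markers 7 were negative, with a median difference of -0.17, and Atoh1, which drives secretory differentiation, had KO (8.08 to 8.35) wholly below WT (8.75 to 9.14), a difference of -0.76 (limma unadjusted p = 0.0057, adjusted p = 0.937). For 3 Paneth cell markers the summed intensity was 16.34 to 16.81 in KO and 17.21 to 17.38 in WT, with no overlap. All 3 were negative, from -0.58 for Itln1 to -4.71 for Mmp7. Mmp7 read 6.82 to 8.60 in KO and 12.30 to 13.28 in WT (limma adjusted p = 0.156). For 6 enterocyte markers the sum was 17.21 to 17.56 in KO and 16.96 to 17.30 in WT. Of these 5 were positive, with a median difference of 0.47, and 2 had KO wholly above WT (5.09% of all probe sets). The Paneth and Atoh1 gaps ran the same way as Galnt5, Galnt3 and C1galt1c1, and their part in those differences was not tested.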

How the data were processed

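The deposited values are log2 intensities of 45101 probe sets on 6 arrays, 1 for each of 3 KO and 3 WT mice; per the submitters' processing notes GCRMA and limma were the tools (no version is given in the sources used here). GCRMA corrects background by probe sequence and pulls dim probe sets to a common floor. Array controls (64 probe sets) were left out. Symbols came from the platform annotation, and all 88 members matched the RefSeq gene table (GRCm38.p6) by gene identifier under the same symbol; 2 probe sets that also carry another gene's symbol were left out. A mean of 4 or more kept 18108 probe sets, which limma 3.58.1 (R 4.3.3) fitted by lmFit and eBayes as 2 groups, two-sided, with Benjamini-Hochberg adjustment over all of them. The fit was tested on simulated data. An exact permutation test of 3 against 3 cannot go below p = 0.1 and was not used. Nothing in the labels beyond littermates ties mice to each other, and p-values describe the spread between these 6 animals. The members and lists were chosen with earlier results of these data known. Values on every array are given for members with an unadjusted p under 0.05 or an absolute difference of at least 1, the brightest member of each role, and members chosen for known intestinal roles or, after their values were seen, for groups that did not overlap or arrays that stood apart. A list is described by counts and medians, with no test. Other settings tried were the replicate number as a block, the filter dropped or raised to 6, quantile and median scaling, array weights, another prior (trended, robust), genes as 1 probe set or as a mean of theirs, and each array left out.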

Additional observations from a re-analysis of the deposited data

How the results depend on the processing

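No member passed an adjusted p of 0.05 under any of the 15 alternatives run, and the smallest adjusted p of a member named with its difference was 0.451 (Galnt5, array weights, limma). The count over all probe sets, 2, became 0 with a replicate block, 0 with no filter, 1 with a filter at 6, 4 with quantile normalization, 4 with median centring, 11 with array weights and 7 with probe sets averaged by gene, and ran from 0 to 16 with an array left out. Same-numbered mice did not deviate together (correlations of -0.05, -0.29 and 0.03), and the replicate block changed no member's call. The members' median, -0.15, was -0.013 with no filter, where all 88 count, and -0.017 with array weights; it ran from -0.17 to -0.0050 (without KO 1) with an array left out. With no filter the median of the initiating genes was -0.026 and of the fucosyltransferases -0.011. With an array left out, medians ran from -0.14 to -0.0013 for fucosyltransferases, from -0.12 to 0.08 for sialyltransferases, from -0.09 to 0.05 for chain extension, from -0.13 to 0.075 for mucins and mucus proteins, from -0.12 to 0.13 for other glycosyltransferases and from -0.20 to 0.019 for sugar donors and transporters.

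The named differences that changed sign were these. With array weights they became 0.084 for Galnt4, 0.25 for B3gnt7 and 0.15 for St3gal4, and with the mean of probe sets 0.14 for Galnt4. With an array left out they ran from -0.43 to 0.041 for Galnt7, -0.17 to 0.13 for Galnt4, -0.10 to 0.41 for Galnt6, -0.048 to 0.48 for B4galt6, -0.46 to 0.26 for B3gnt7, -0.59 to 0.27 for St3gal4, -0.055 to 1.12 for St8sia4 and -0.17 to 0.29 for Muc2. The cause was not tested. The number of arrays, 3 per group, and the GCRMA floor limit what can be seen in dim members.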
